A study of Mus musculus with 72 samples.

Results

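The genes followed here are 5 nuclear receptors, Esr1, Pgr, Nr3c1, Nr3c2 and Esrra, and a pair of genes tied to oestrogen receptor activity, Greb1 and Nrip1. They were chosen by name, as 7 of the 50600 genes listed in the count table, and their resting level in each melanoma line and their change after gastrin-releasing peptide (GRP) were read in all 72 libraries. Bulk RNA-seq was performed on cultured mouse melanoma cells of 6 lines, each given 4 treatments in 3 replicates. Cells were starved for 18 h and then kept for 4 h in 0.5% serum with DMSO (mock), GRP at 10 nM, the GRP receptor antagonist RC-3095 at 1 µM (RC), or GRP and RC together. The labels call the replicates separate samples but do not say that they came from separate cultures, so the p-values measure the spread between these samples.

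All 6 lines carry an activated human NRAS transgene expressed from the tyrosinase promoter, Tyr::NRASQ61K/°, and each is a single line. Lines 1057 and 1064 came from female tumours and are Cdkn2a-/-, Tyr::CreA/° and Cdh1dF/dF, so Cre expressed in melanocytes removed E-cadherin, and they express Grpr of their own. The 1181 lines are labelled male, Cdkn2a-/- and Cdh1dF/dF without Cre (°/°), and carry CMV::Grpr/tGFP (1181-Grpr) or CMV::tGFP (1181-Ctrl). The 1014 lines are female, with CMV::Grpr/tGFP (1014-Grpr) or CMV::tGFP (1014-Ctrl) as the only other named alleles. The 4 transfected lines were kept under selection, so that Grpr came from a viral promoter in 1014-Grpr and 1181-Grpr. Receptor-positive (GRPRpos) lines in the labels are 1057, 1064, 1014-Grpr and 1181-Grpr, and receptor-negative (GRPRneg) lines are 1014-Ctrl and 1181-Ctrl.

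Steroid receptors are transcription factors that bind their hormone, enter or stay in the nucleus and recruit coactivators or corepressors to hormone response elements. Esr1 encodes oestrogen receptor alpha, Pgr the progesterone receptor and a textbook target of oestrogen, Nr3c1 the glucocorticoid receptor, and Nr3c2 the mineralocorticoid receptor. Esrra encodes an orphan relative of the oestrogen receptor that drives genes of mitochondrial energy metabolism without binding oestrogen. Greb1 encodes an oestrogen-induced cofactor of that receptor, and Nrip1 encodes the corepressor RIP140, itself induced by oestrogen and a brake on several nuclear receptors.

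In the GENCODE annotation of GRCm38.p6 Esr1 lies on chr10:4611593-5005614, Pgr on chr9:8899833-8968611, Nr3c2 on chr8:76899442-77245012, Esrra on chr19:6910977-6921813, Greb1 on chr12:16670615-16800886 and Nrip1 on chr16:76287400-76373827. The identifiers in the files are ENSMUSG00000019768 (Esr1), ENSMUSG00000031870 (Pgr), ENSMUSG00000024431 (Nr3c1), ENSMUSG00000031618 (Nr3c2), ENSMUSG00000024955 (Esrra), ENSMUSG00000036523 (Greb1) and ENSMUSG00000048490 (Nrip1). Exons of Nr3c2 share 3.82% of their bases with Gm10649 on the other strand, and those of Esrra share 3.74% with Mir6990 on the same strand and Trmt112 on the other, and whether strand was used in counting is not given in the sources used here. The exons of the other 5 genes overlap no exon of another gene listed in the count table.

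The 250 bases before the first annotated start are shown for Nrip1, Pgr and Greb1, the genes that changed after GRP alone in line 1057, the line with the most Esr1. The sequences are those of RefSeq for GRCm38.p6, read 5′ to 3′ on the strand of the gene, in lower case, from chr16:76373828-76374077 (minus strand) for Nrip1, chr9:8899583-8899832 (plus strand) for Pgr and chr12:16800887-16801136 (minus strand) for Greb1. Capitals mark the only match to any of the 7 motifs searched.

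Nrip1: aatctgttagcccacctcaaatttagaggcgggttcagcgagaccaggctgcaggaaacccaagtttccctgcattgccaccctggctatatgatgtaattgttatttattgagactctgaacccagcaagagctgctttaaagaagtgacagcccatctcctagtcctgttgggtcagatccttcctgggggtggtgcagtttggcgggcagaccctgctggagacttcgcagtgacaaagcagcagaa

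Pgr: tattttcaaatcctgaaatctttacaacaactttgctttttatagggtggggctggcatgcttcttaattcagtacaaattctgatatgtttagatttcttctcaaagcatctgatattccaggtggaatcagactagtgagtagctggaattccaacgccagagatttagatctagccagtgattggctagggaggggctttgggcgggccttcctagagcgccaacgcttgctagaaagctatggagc

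Greb1: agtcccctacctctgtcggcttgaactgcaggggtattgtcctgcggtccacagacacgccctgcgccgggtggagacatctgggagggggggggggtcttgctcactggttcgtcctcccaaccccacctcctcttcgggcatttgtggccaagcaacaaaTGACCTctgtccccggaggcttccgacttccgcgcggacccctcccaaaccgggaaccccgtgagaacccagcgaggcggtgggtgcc

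The match in the Greb1 window, TGACCT, is the reverse complement of AGGTCA, the single arm of a nuclear receptor element, which 16.3% of 32817 RefSeq promoter windows (250 bases before to 50 after a start) hold on either strand. The palindromic oestrogen response element (0.0701% of windows), the oestrogen-related receptor element TCAAGGTCA (0.424%, and always holding AGGTCA), the palindromic glucocorticoid response element (0.475%), the cyclic AMP response element TGACGTCA (1.79%), the AP-1 site TGANTCA (7.81%) and the TEAD site GGAATG (14.7%) did not occur in these 3 stretches on either strand. Response elements can lie far from a start site, and only these windows were read.

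Library totals ran from 19512882 to 46862053 counts, and the floor of 3 counts was at most 0.154 CPM (counts scaled to library size). Grpr averaged 274, 1002, 125 and 11.8 CPM in mock-treated 1057, 1064, 1014-Grpr and 1181-Grpr cells, and at most 0.0914 CPM in any library of the receptor-negative lines but 1. Melanocyte lineage genes summed to 5500 CPM or more in every line, leukocyte and keratinocyte markers to at most 1.48 CPM, fibroblast markers to at most 19.8 CPM, and the endothelial pair Pecam1 and Cdh5 to 3.02 to 6.72 CPM in 1057 and 1064 and under 0.5 CPM elsewhere. A pair of libraries went against their labels. The library labelled 1014-Ctrl mock replicate 2 held 64.3 CPM of the Y-linked Ddx3y and 48.1 CPM of Grpr, where the other 11 libraries of that line held none of Ddx3y and at most 0.0334 CPM of Grpr. The library labelled 1181-Grpr GRP+RC replicate 2 held no Ddx3y and no Grpr and 796 CPM of Xist. The other 11 libraries of 1181-Grpr, a line labelled male, held 192 to 251 CPM of Xist beside 36.9 to 63 CPM of Ddx3y, while 1181-Ctrl held at most 0.639 CPM of Xist. Results that rest on these libraries are given with and without them. In bulk RNA, fewer cells that express a gene and less RNA per cell cannot be told apart.

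Per unit of transcript length, the glucocorticoid receptor and the orphan receptor dominated the receptors of these cells. In TPM, the length-scaled level, mock-treated 1057 cells held 41.5 ± 2.67 of Esrra, 33.2 ± 0.742 of Nr3c1 and 19.3 ± 0.591 of Nrip1, against 3.43 ± 0.163 of Esr1, 1.64 ± 0.206 of Greb1, 1.30 ± 0.0361 of Nr3c2 and 0.33 ± 0.01 of Pgr (mean ± SD, n = 3). In 1181-Ctrl the spread was wider, from 131 ± 14.8 TPM of Esrra and 33.4 ± 5.10 TPM of Nr3c1 down to 0.0233 ± 0.0231 TPM of Esr1. Levels between lines are given below as CPM, scaled over all 72 libraries by trimmed mean of M-values, and the order of lines by TPM was the same for 4 of the 7 genes and gave the same highest line for all 7.

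**Figure D1:**
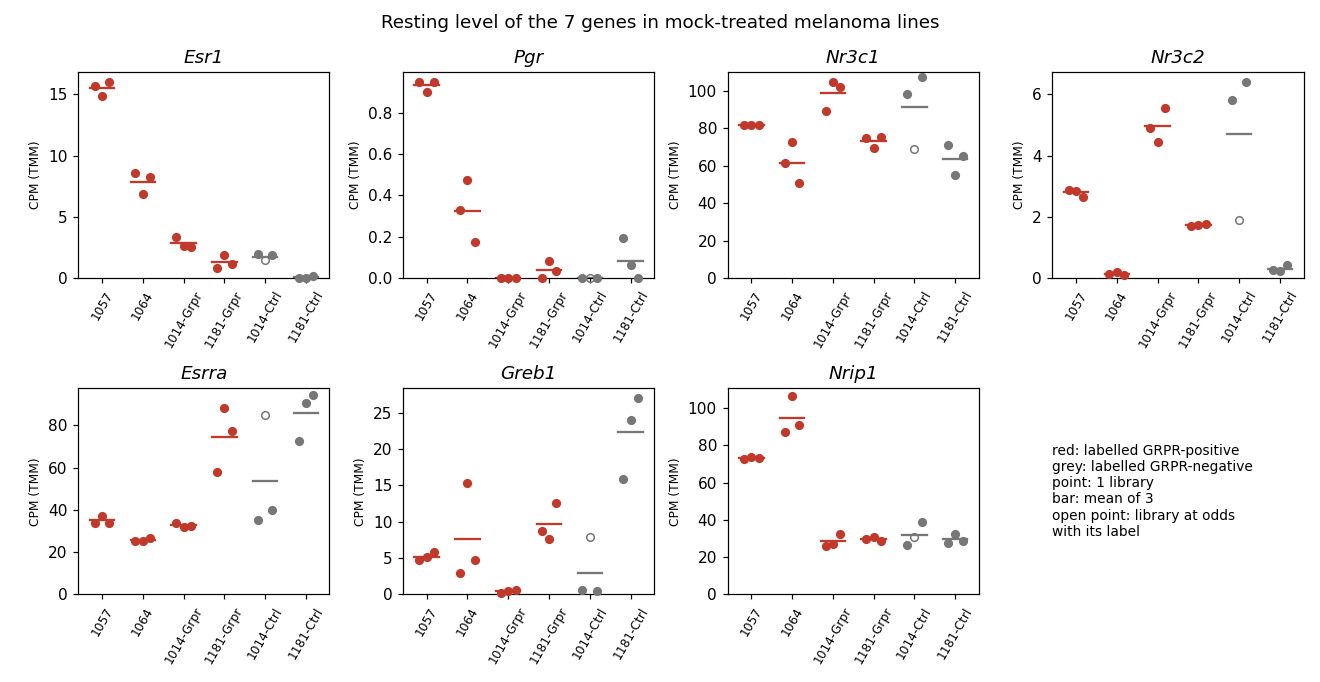
Resting levels of the 7 genes in mock-treated cells of the 6 lines, 1 panel per gene. Points are libraries (3 per line) on a CPM axis, and bars are line means, red for receptor-positive and grey for receptor-negative lines, with an open point for the 1014-Ctrl library at odds with its label. Esr1 and Pgr were highest in 1057, Esrra and Greb1 in 1181-Ctrl, and Nrip1 in 1064.

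Resting levels differed between lines in 61 of 105 tests (7 genes by 15 pairs of lines; edgeR's quasi-likelihood test on 18 mock libraries, adjusted p under 0.05), and 50 of these also passed an absolute log2 fold change of 1. Without the library at odds with its label 74 of 105 passed, 57 of them past both limits. Shares of all genes are given only with that library kept, so the rise to 74 is no result about these members. Among all 15358 genes tested the share with an adjusted p under 0.05 ran from 0% to 60.4% over the same 15 pairs, and the share also past 1 from 0% to 35.6%, so lines differed in much of their transcriptome. Between 1057 and 1064, which share their listed genotype, 4 of 7 members passed the adjusted p, against 49.4% of all genes. Between 1057 and the transfected lines 5 members passed against 1014-Grpr (57.5% of all genes), 4 against 1181-Grpr (56.1%), 4 against 1014-Ctrl (54.8%) and 6 against 1181-Ctrl (60.4%). Between 1064 and those lines 6 passed against 1014-Grpr (55.2%), 5 against 1181-Grpr (55.2%), 6 against 1014-Ctrl (52.7%) and 3 against 1181-Ctrl (59.1%). Among the transfected lines 5 passed between 1014-Grpr and 1181-Grpr (29.7%), 6 between 1014-Grpr and 1181-Ctrl (50.6%), 5 between 1014-Ctrl and 1181-Ctrl (34.6%) and 2 between 1181-Grpr and 1181-Ctrl (9.73%). None passed between 1014-Grpr and 1014-Ctrl (0.0846%) or between 1181-Grpr and 1014-Ctrl (0%) by edgeR, where 3 members (Esr1, Esrra, Greb1) and 2 members (Nr3c1, Nr3c2) had an unadjusted p under 0.05. DESeq2 gave adjusted p of 0.0257 for Greb1 in the first of these pairs and 0.0109 for Nr3c2 in the second, both of which hold the library at odds. With 7 members, a share that departs from that of all genes by 1 or 2 members is no result about them. Esr1 differed in 13 of 15 pairs, Nr3c2 in 10, Esrra and Nrip1 in 9, Pgr in 8, and Nr3c1 and Greb1 in 6. Without the library at odds, Esr1 and Nr3c2 differed in 13 pairs, Esrra in 11, Greb1 in 10, and Pgr, Nr3c1 and Nrip1 in 9.

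Esr1 formed a gradient across the lines, highest in both lines that lack E-cadherin through Cre. It measured 15.7, 14.9 and 16.0 CPM in 1057, 8.59, 6.83 and 8.23 CPM in 1064, and 3.38, 2.64 and 2.51 CPM in 1014-Grpr. It then measured 1.94 and 1.85 CPM in 1014-Ctrl (1.45 CPM in the library at odds with its label), 0.857, 1.91 and 1.15 CPM in 1181-Grpr, and 0.0383, 0.0305 and 0.183 CPM in 1181-Ctrl. The libraries of 1057, of 1064 and of 1014-Grpr did not overlap with those of any line below them, whereas those of 1014-Ctrl and 1181-Grpr overlapped with each other. The libraries of 1181-Ctrl lay below all others and held only 1 to 4 counts each. Esr1 was 0.98 higher in 1057 than in 1064 on the log2 scale (SE 0.301, adjusted p = 0.0144), 1.46 higher in 1064 than in 1014-Grpr (SE 0.310, adjusted p = 0.00105), and 4.02 higher in 1181-Grpr than in 1181-Ctrl (SE 0.457, adjusted p = 2.45e-05). The 1057 to 1064 step no longer passed the adjusted p without replicate 1 (adjusted p = 0.0593) or replicate 3 (adjusted p = 0.0724). Between 1014-Grpr and 1014-Ctrl the difference of 0.71 (SE 0.316) had an adjusted p of 0.433, and between 1181-Grpr and 1014-Ctrl the difference of -0.44 had an adjusted p of 0.45. The Esr1 step within the 1181 pair ran beside the Xist difference given above, and the part of that difference in the result was not tested.

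Among the receptor-positive lines, Esr1 was lower in 1181-Grpr than in 1014-Grpr by 1.14 on the log2 scale (SE 0.321, adjusted p = 0.0167). The adjusted p was 0.213 without replicate 1 and 0.119 without replicate 3. The 1181-Grpr line did not separate from the receptor-negative 1014-Ctrl line. The part of receptor status in the order of Esr1 was not tested. Grpr, Cdh1 and the sex label also moved with the lines. Cdh1 was at most 0.117 CPM in 1057 and 1064, 0.701 to 5.13 CPM in the 1014 lines and 9.74 to 27 CPM in the 1181 lines, leaving out the 2 libraries, and with 6 lines the genotype, sex and origin of a line cannot be told apart.

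Pgr was near the floor outside 1057. It measured 0.950, 0.898 and 0.947 CPM in 1057 (29 to 31 counts) and 0.331, 0.477 and 0.172 CPM in 1064 (5 to 9 counts), and no library of 1057 overlapped with 1064. The 1014 lines held no count in any mock library, and the 1181 lines held 0 to 5 counts. The difference between 1057 and 1064, 1.54 on the log2 scale (SE 0.601), had an adjusted p of 0.0524, and 0.0315 without the library at odds. By mean, Pgr was thus highest in 1057 and then 1064, the lines with the most Esr1, over 6 lines. Only 1057 stood clear of the rest. The lowest library of 1064 (0.172 CPM) lay below the highest of 1181-Ctrl (0.192 CPM), the line with the least Esr1.

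Nr3c1, by contrast, was expressed in every line within a narrow range, with means from 61.7 ± 10.9 CPM in 1064 to 98.6 ± 8.21 CPM in 1014-Grpr (SD, n = 3). Without the library at odds the highest mean was that of 1014-Ctrl, 103 ± 6.49 CPM (n = 2). None of its 15 comparisons passed an absolute log2 fold change of 1, and 6 passed the adjusted p (9 without the library at odds). The largest of them put 1064 lower than 1014-Grpr by 0.69 (SE 0.156, adjusted p = 0.00166, and 0.0608 without replicate 3).

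Its relative Nr3c2 varied far more. It measured 4.91, 4.44 and 5.56 CPM in 1014-Grpr, 5.81 and 6.42 CPM in 1014-Ctrl (1.90 CPM in the library at odds), and 2.88, 2.85 and 2.66 CPM in 1057. In 1181-Grpr it measured 1.68, 1.74 and 1.78 CPM, in 1181-Ctrl 0.268, 0.244 and 0.411 CPM, and in 1064 0.124, 0.212 and 0.103 CPM (3 to 4 counts). The 1014 lines were highest and 1064 lowest, with no overlap between 1057, 1181-Grpr, 1181-Ctrl and 1064. The female lines 1057 and 1064, which share their listed genotype, differed by 4.27 on the log2 scale (SE 0.449, adjusted p = 2.53e-06), and 1181-Grpr was 2.51 higher than 1181-Ctrl (SE 0.401, adjusted p = 0.000636, and 0.0564 without replicate 1). As for Esr1, Xist differed within that pair and its part in the result was not tested.

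Esrra ran the other way, highest in the 1181 lines. It measured 72.6, 90.6 and 94.1 CPM in 1181-Ctrl, 58.0, 88.3 and 77.1 CPM in 1181-Grpr, and 25.3, 25.3 and 26.6 CPM in 1064. Libraries of 1057 (33.8 to 37.2 CPM), 1014-Grpr (31.7 to 34.0 CPM) and 1014-Ctrl (35.2 and 40.1 CPM, with 84.9 CPM in the library at odds) stood between and, apart from that library, below every 1181 library. Esrra was lower in 1057 than in 1181-Ctrl by 1.30 (SE 0.249, adjusted p = 0.00039) and lower in 1064 than in 1181-Ctrl by 1.74 (SE 0.253, adjusted p = 3.62e-05), while the 1181 lines differed from each other by 0.20 (adjusted p = 0.682).

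Greb1 was also highest where Esr1 was lowest. It measured 15.8, 24.0 and 27.0 CPM in 1181-Ctrl, 8.74, 7.59 and 12.6 CPM in 1181-Grpr, and 4.69, 5.14 and 5.78 CPM in 1057. In 1064 it measured 2.97, 15.3 and 4.68 CPM, in 1014-Grpr 0.171, 0.456 and 0.574 CPM, and in 1014-Ctrl 0.569 and 0.406 CPM (7.85 CPM in the library at odds). Replicate 2 of 1064 stood apart from the other libraries of that line under all 4 treatments, at 14.3 to 18.5 CPM against 1.41 to 5.70 CPM. Greb1 was lower in 1057 than in 1181-Ctrl by 2.10 on the log2 scale (SE 0.817, adjusted p = 0.0368, and 0.0846 and 0.139 without replicates 1 and 3) and lower in 1014-Grpr than in 1181-Ctrl by 5.79 (SE 1.02, adjusted p = 0.000365). Of its 15 pairs 6 passed, and 10 passed once the library at odds was left out.

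Nrip1 was highest in 1064, next in 1057 and lower in the other 4 lines. It measured 87.4, 107 and 90.8 CPM in 1064 and 72.6, 74.0 and 73.4 CPM in 1057, while every mock library of the other 4 lines lay between 25.9 and 38.8 CPM. The E-cadherin-null lines were thus above all other libraries without overlap, and the libraries of 1064 lay above those of 1057. The 9 comparisons that passed the adjusted p were those with 1057 or 1064, including that between these lines. Nrip1 was 1.31 higher in 1057 than in 1181-Ctrl on the log2 scale (SE 0.135, adjusted p = 1.14e-06) and 1.73 higher in 1064 than in 1014-Grpr (SE 0.136, adjusted p = 1.48e-07), and none of the 6 comparisons among the 1014 and 1181 lines passed (adjusted p from 0.484 to 0.963).

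Other oestrogen-type receptors were low in these cells. Esr2, the second oestrogen receptor, averaged at most 0.0233 CPM in any line and the membrane receptor Gper1 at most 0.417 CPM. Esrrb stayed at or below 0.0992 CPM, and Esrrg averaged 0.807 and 1.05 CPM in 1181-Grpr and 1181-Ctrl.

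The next comparison asked which of these genes respond to GRP. At adjusted p under 0.05, 3 of 7 members changed in 1057 (2 higher, 1 lower), where 52.6% of all 14195 genes tested changed. In 1064, 1 of 6 members tested rose, against 6.38% of all genes in either direction, and in 1014-Grpr 1 of 6 rose and 1 fell, against 29.0% of all genes. Adding the log2 fold change limit of 1 left 0 of 7 members in 1057 (6.46% of all genes), 1 of 6 in 1064 (2.32%) and 0 of 6 in 1014-Grpr (4.01%). With the replicate number as a block, Esr1 also fell and Esrra and Nr3c1 also rose in 1064, where 43.5% of all genes then passed the adjusted p. Greb1, Esrra and Nr3c1 also rose in 1014-Grpr with the block, where 53.6% of all genes passed. In 1181-Grpr, 1014-Ctrl and 1181-Ctrl none of the 6, 6 and 5 members tested passed, and neither did any other gene (0% by edgeR, with 45, 562 and 37 genes at an unadjusted p under 0.05). Without adjustment edgeR gave a p under 0.05 to Greb1 in 1014-Ctrl only, and DESeq2 called 0 members in these 3 lines. Without the library at odds and with the replicate block, 67 of 14770 genes passed in 1181-Grpr, no member among them. Low counts kept Pgr out of the test in the 1014 and 1181 lines, Nr3c2 in 1064, and Esr1 in 1181-Ctrl.

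**Figure D2:**
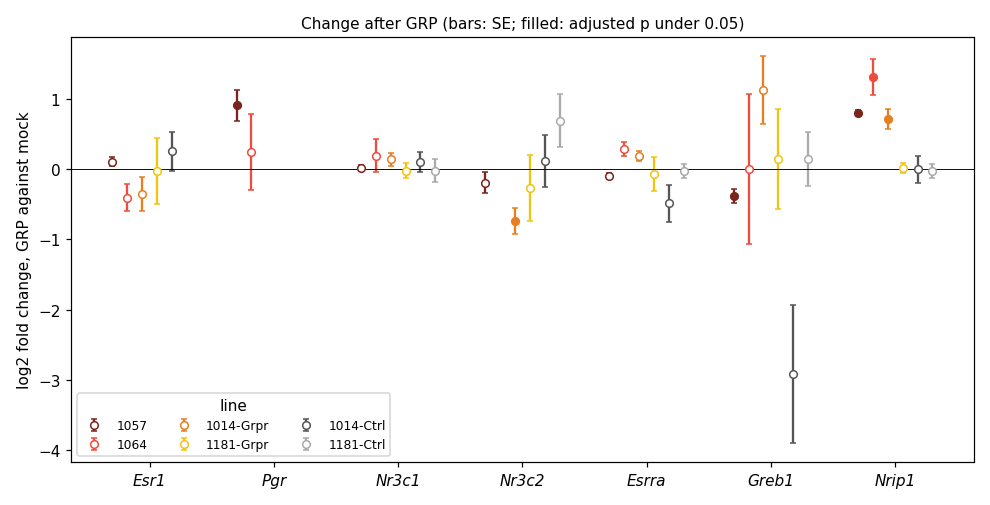
Log2 fold change of each gene after GRP against mock in the 6 lines, with bars of 1 standard error either side and a colour per line. Filled points have an adjusted p under 0.05 by edgeR's quasi-likelihood test. Nrip1 rose in 1057 (0.80), 1064 (1.31) and 1014-Grpr (0.72) and lay near 0 in the other 3 lines, and the Greb1 point of 1014-Ctrl (-2.92) rests on the mock library at odds with its label.

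Nrip1, the corepressor, was the member that rose in 3 receptor-positive lines. In 1057 it went from 72.6, 74.0 and 73.4 CPM in mock to 127, 122 and 127 CPM with GRP. In 1064 it went from 87.4, 107 and 90.8 CPM to 285, 223 and 195 CPM. In 1014-Grpr, where Grpr is expressed from a plasmid, it went from 25.9, 26.9 and 32.5 CPM to 37.2, 45.5 and 56.3 CPM. All GRP libraries exceeded all mock libraries in each of these lines. The rise was 0.80 on the log2 scale in 1057 (SE 0.0438, 1.74-fold, adjusted p = 2.56e-11), 1.31 in 1064 (SE 0.259, 2.48-fold, adjusted p = 0.018) and 0.72 in 1014-Grpr (SE 0.144, 1.64-fold, adjusted p = 0.00288). With replicate number as a block the values were 1.28 in 1064 (adjusted p = 0.000156) and 0.71 in 1014-Grpr (adjusted p = 8.91e-09). Leaving out a replicate, in fits without the block, ended the call in 1064 for replicate 1 (1.09, adjusted p = 0.176) and replicate 2 (1.45, adjusted p = 0.198). In those fits of 1064 no gene passed (0 of 13857 and 0 of 13812 tested). In 1014-Grpr the adjusted p no longer passed without replicate 2 (0.69, adjusted p = 0.0614).

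Nrip1 did not pass the test in the remaining lines. In 1181-Grpr it measured 29.8, 31.0 and 28.7 CPM in mock and 30.2, 31.1 and 29.5 CPM with GRP, a difference of 0.02 on the log2 scale with an interval of 2 SE from -0.13 to 0.17. In 1181-Ctrl mock libraries held 27.4, 32.6 and 28.8 CPM and GRP libraries 27.5, 30.7 and 29.9 CPM, with an interval from -0.22 to 0.17. In 1014-Ctrl mock libraries held 26.5, 30.9 and 38.8 CPM and GRP libraries 30.7, 26.7 and 39.3 CPM, with an interval from -0.38 to 0.37. Mock and GRP libraries overlapped in each of these lines, and adjusted p was 0.996 or above. The receptor-positive 1181-Grpr line held the least Grpr of the receptor-positive lines, 8.46 to 80.7 CPM over the 11 libraries in keeping with their label.

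**Figure D3:**
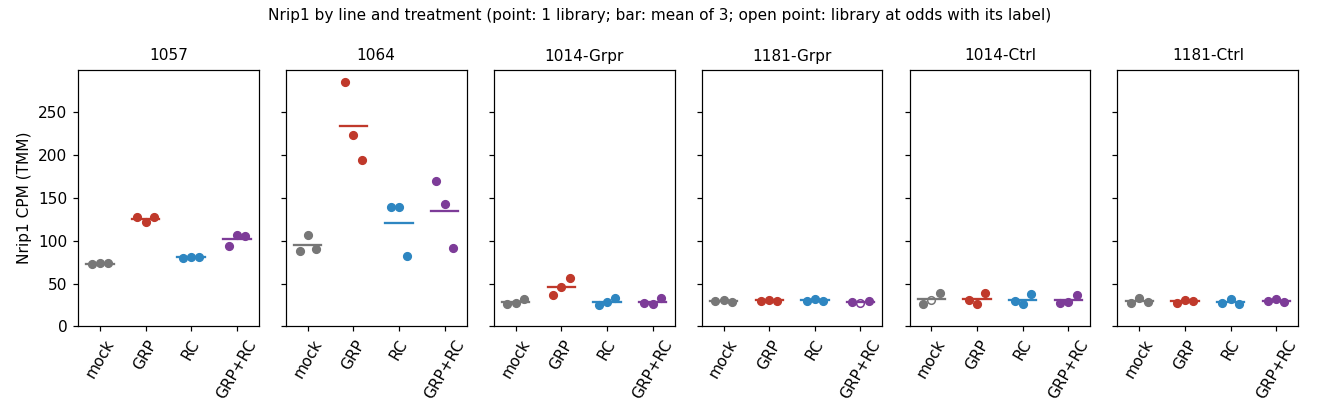
Nrip1 in CPM under mock, GRP, RC and GRP+RC in each line. Points are libraries, bars are means of 3, and open points are the 2 libraries at odds with their labels. GRP libraries stood above mock libraries in 1057, 1064 and 1014-Grpr, and GRP+RC libraries lay below GRP libraries in the same 3 lines.

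The progesterone receptor gene Pgr rose in 1057, from 0.950, 0.898 and 0.947 CPM to 1.78, 1.41 and 1.98 CPM. Every GRP library was above every mock library. The change was 0.91 on the log2 scale (SE 0.218, 1.87-fold, adjusted p = 0.00186), from counts that did not exceed 62 in any library, and a single fit of all 72 libraries gave 0.89 with an adjusted p of 0.295. In 1064, with 0.331, 0.477 and 0.172 CPM in mock and 0.171, 0.614 and 0.356 CPM with GRP, the groups overlapped and the difference of 0.24 (SE 0.546, adjusted p = 0.853) was not resolved at this depth.

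Greb1 fell in 1057, from 4.69, 5.14 and 5.78 CPM to 3.63, 3.94 and 4.19 CPM, without overlap (decreased by 0.38 on the log2 scale, SE 0.0997, adjusted p = 0.00367). In that line a pair of genes known as oestrogen targets, Pgr and Greb1, therefore moved in opposite directions. In 1014-Grpr Greb1 went from 0.171, 0.456 and 0.574 CPM to 0.477, 0.798 and 1.22 CPM, groups that overlap but are ordered alike in 3 of 3 pairs of replicates. The change of 1.13 (SE 0.481) had an adjusted p of 0.1, and with the replicate number as a block it was 1.05 with an adjusted p of 0.00433. In 1064 the spread of replicates, 2.97, 15.3 and 4.68 CPM in mock against 1.41, 16.8 and 4.59 CPM with GRP, left a standard error of 1.07, and with the block the difference was -0.15 (adjusted p = 0.53). In 1014-Ctrl the difference of -2.92 (adjusted p = 0.698) shrank to -0.33 without the library at odds.

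Nr3c2 fell in 1014-Grpr, from 4.91, 4.44 and 5.56 CPM to 2.54, 3.13 and 3.14 CPM. All GRP libraries were below all mock libraries, and the gene decreased by 0.74 on the log2 scale (SE 0.187, adjusted p = 0.0107, and 8.44e-05 with the replicate block). Leaving out replicate 1 gave -0.66 with an adjusted p of 0.146. In 1057 the 3 mock libraries held 2.66 to 2.88 CPM and the GRP libraries 1.98 to 2.70 CPM, a difference of -0.19 (SE 0.154, adjusted p = 0.323).

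Esr1 itself, Nr3c1 and Esrra did not pass the main test after GRP in any line. For Esr1 in 1064 mock libraries held 8.59, 6.83 and 8.23 CPM and GRP libraries 6.25, 4.76 and 6.77 CPM. GRP libraries lay below mock libraries throughout, and the difference of -0.41 (SE 0.188, adjusted p = 0.24) reached an adjusted p of 0.00501 with the replicate block (-0.40). In 1014-Grpr Esr1 went from 3.38, 2.64 and 2.51 CPM to 2.74, 2.13 and 1.85 CPM, groups that overlap but are ordered alike in 3 of 3 pairs of replicates, a difference of -0.35 (SE 0.244, adjusted p = 0.314, and 0.0791 with the block). In 1057 Esr1 held 14.9 to 16.0 CPM in mock and 16.2 to 16.8 CPM with GRP, a difference of 0.11 (SE 0.0587, adjusted p = 0.134). Esrra in 1064 went from 25.3, 25.3 and 26.6 CPM to 34.4, 27.7 and 31.9 CPM, without overlap (0.29, SE 0.0962, adjusted p = 0.106, and 0.00546 with the block). In 1014-Grpr Esrra differed by 0.18 (adjusted p = 0.0685, and 0.00624 with the block). Nr3c1 differed by 0.19 in 1064 (adjusted p = 0.703, and 0.0345 with the block) and by 0.14 in 1014-Grpr (adjusted p = 0.291, and 0.0044 with the block). In 1057 the glucocorticoid receptor gene held 81.8 to 81.9 CPM in mock and 79.5 to 82.4 CPM with GRP, a difference of 0.01 with an interval of 2 SE from -0.06 to 0.09.

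**Figure D4:**
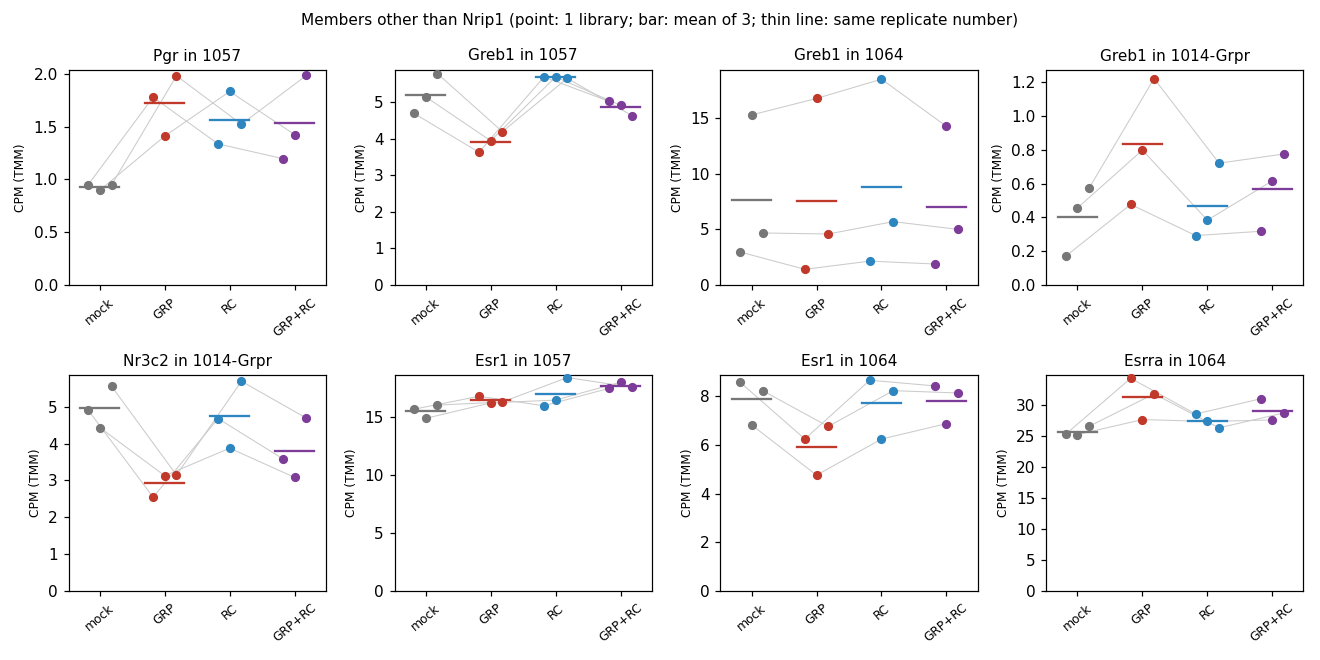
CPM of Pgr, Greb1, Nr3c2, Esr1 and Esrra under mock, GRP, RC and GRP+RC, in 8 panels that each show 1 gene in 1 line (1057, 1064 or 1014-Grpr). Points are libraries, bars are means of 3, and thin lines join libraries of the same replicate number. Pgr rose and Greb1 fell with GRP in 1057, and Nr3c2 fell with GRP in 1014-Grpr.

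Whether the effect of GRP depended on the transfected receptor was tested within each pair of lines as the difference of their GRP effects. In the 1014 pair 1 of 6 members tested passed both limits (13.6% of all genes passed the adjusted p and 3.89% both). That gene was Greb1, whose GRP effect was 4.02 higher in 1014-Grpr than in 1014-Ctrl (SE 1.15, adjusted p = 0.0245). The value rested on the library labelled 1014-Ctrl mock replicate 2, which held 7.85 CPM where its fellows held 0.569 and 0.406 CPM, and without the 2 libraries it was 1.47 (adjusted p = 0.162). Leaving out replicate 1 or replicate 3 of both lines also ended the call, at 4.29 (adjusted p = 0.104) and 4.62 (adjusted p = 0.0874). For Nrip1 the GRP effect was 0.71 higher in 1014-Grpr (SE 0.249, adjusted p = 0.0632), and 0.70 with the replicate block (adjusted p = 0.000235) and 0.68 without the 2 libraries and with the block (adjusted p = 4.34e-05). DESeq2 gave 0.72 with an adjusted p of 0.0389. In the 1181 pair none of 6 members passed (0% of all genes). Nrip1 differed there by 0.04, with an interval of 2 SE from -0.21 to 0.28. The 1014 estimate of 0.71 lay above this interval but had its own SE of 0.249, and the 1014 and 1181 pairs were not compared by a test. Across 1057, 1064 and 1014-Grpr the size of the Nrip1 rise was not compared by a test.

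The antagonist comparisons share their mock libraries with the GRP comparison, so their values are set side by side. In 1057 Nrip1 measured 79.4, 81.4 and 81.0 CPM with RC alone and 93.8, 107 and 106 CPM with GRP+RC. RC libraries stood just above mock, and GRP+RC libraries lay between RC and GRP without overlap. Nrip1 was 0.13 above mock with RC (SE 0.0447, adjusted p = 0.0427, where 24.3% of all genes passed), a difference that no longer passed without replicate 2 or 3 (adjusted p = 0.154 for each). With GRP+RC it was 0.48 above mock (SE 0.0442, adjusted p = 7.27e-08, 44.3% of all genes) and lower than with GRP by 0.33 (SE 0.043, adjusted p = 1.63e-05, 24.7% of all genes).

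In 1014-Grpr the Nrip1 level with GRP+RC lay close to mock. Libraries held 25.5, 28.2 and 32.7 CPM with RC and 27.6, 26.4 and 32.7 CPM with GRP+RC, within the mock range or next to it and below all GRP libraries. GRP+RC was 0.68 lower than GRP (SE 0.145, adjusted p = 0.00963, 11.8% of all genes), and its difference from mock was 0.04 (SE 0.147, adjusted p = 0.965). The step below GRP had an adjusted p of 0.164 without replicate 2. In 1064 Nrip1 measured 139, 139 and 81.7 CPM with RC and 169, 143 and 91.3 CPM with GRP+RC. The GRP+RC libraries were all below the GRP libraries, by 0.81 on the log2 scale (SE 0.256, adjusted p = 0.306, 0.0290% of all genes), and by 0.84 with the replicate block (adjusted p = 0.00462).

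Pgr in 1057 rose with the antagonist too. RC libraries held 1.34, 1.83 and 1.52 CPM and GRP+RC libraries 1.20, 1.43 and 1.99 CPM, all above the mock libraries and overlapping with the GRP libraries. Pgr was 0.74 above mock with RC (SE 0.223, adjusted p = 0.0212) and 0.71 above mock with GRP+RC (SE 0.223, adjusted p = 0.0154), and GRP+RC differed from GRP by -0.20 (SE 0.201, adjusted p = 0.534). Without replicate 2 and without replicate 3 the RC value had an adjusted p of 0.203 and 0.0625, and the GRP+RC value 0.0527 and 0.16.

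In all, 4 of 7 members changed in 1057 with GRP+RC against mock, where 44.3% of all genes changed, and none passed both limits (3.47% of all genes). Besides Nrip1 and Pgr these were a rise of Esr1 by 0.19 (17.5, 18.0 and 17.6 CPM, adjusted p = 0.0133, and 0.138 without replicate 2) and a fall of Nr3c1, which decreased by 0.11 (72.3, 78.5 and 75.7 CPM, adjusted p = 0.0201, and 0.148 and 0.131 without replicates 1 and 3). Nr3c1 was also 0.13 lower with GRP+RC than with GRP (adjusted p = 0.0178, and 0.19 and 0.145 without replicates 1 and 3). Greb1 measured 5.02, 4.91 and 4.62 CPM with GRP+RC, all above the GRP libraries, with a difference of 0.28 and an adjusted p of 0.0503. In 1014-Grpr Nr3c2 measured 3.58, 3.08 and 4.69 CPM with GRP+RC, 0.36 above GRP (SE 0.191, adjusted p = 0.266, and 0.0498 with the replicate block). In 1014-Grpr with the block Nr3c1 was also lower with GRP+RC than with GRP by 0.21 (adjusted p = 0.000227), and in 1064 Esr1 was 0.39 higher (adjusted p = 0.0144).

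Genes around the receptors were described from lists of known partners and targets, as counts beside the median of all genes tested, which was -0.01 in 1057 and -0.02 in 1064 and 1014-Grpr. Of all genes, 25.7% rose and 26.9% fell in 1057, 3.62% rose and 2.76% fell in 1064, and 16.3% rose and 12.7% fell in 1014-Grpr. Blocking on the replicate number raised the share that changed to 43.5% in 1064 and 53.6% in 1014-Grpr, so blocked counts of each list are given too. No test was made of any list. Among 20 coactivators, corepressors and receptor chaperones, 6 of 18 tested rose and 7 fell in 1057, 1 of 17 fell in 1064, and 3 of 18 rose and 3 fell in 1014-Grpr. Blocked counts were 4 up and 6 down in 1064 and 8 up and 7 down in 1014-Grpr. The coactivator gene Ncoa1 fell in all 3 lines (decreased by 0.88, 0.57 and 0.28 on the log2 scale, adjusted p = 2.37e-13, 0.0355 and 0.0145). The receptor chaperone gene Fkbp5, itself a glucocorticoid target, rose in 1057 (0.96, adjusted p = 4.81e-13) and 1014-Grpr (0.77, adjusted p = 0.000206), and had a value of 1.02 with an adjusted p of 0.128 in 1064 (0.0021 with the replicate block).

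Glucocorticoid targets are genes that the bound receptor switches on or off. Of 17 listed, 9 of 13 tested rose and 3 fell in 1057, with a median of 0.32 on the log2 scale, 3 of 14 rose in 1064 (median 0.55), and 7 of 13 rose in 1014-Grpr (median 0.45). Blocked counts were 9 up and 2 down in 1064 and 8 up and 1 down in 1014-Grpr. The serum and glucocorticoid regulated kinase gene Sgk1 rose by 2.04, 2.06 and 3.67, and the clock gene Per1 by 1.25, 1.69 and 0.74. The transcription factor gene Cebpd rose by 1.93 in 1014-Grpr. Sgk1 and Per1 also respond to other signals, such as cyclic AMP and serum factors. Nr3c1 itself did not pass the main test in these comparisons, but passed with the replicate block in 1064 and 1014-Grpr, as given above.

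Oestrogen targets were found in both directions. Of 20 listed, 5 of 14 tested rose and 6 fell in 1057 (median -0.10), 2 of 12 rose in 1064 (median -0.06), and 3 of 12 rose and 2 fell in 1014-Grpr (median 0.09). Blocked counts were 3 up and 4 down in 1064 and 4 up and 2 down in 1014-Grpr. The growth factor gene Areg (4.48) and Xbp1 (1.23), a regulator of protein secretion, rose and the chemokine gene Cxcl12 fell (-1.75) in 1057. Xbp1 (1.15) and Cited2 (1.44) rose in 1064, and Stc2 (1.50) and Myc (1.00) in 1014-Grpr. A further list of 9 genes, with which the study scored oestrogen receptor activation, holds Pgr. How its genes were chosen is not given in the sources used here, and 3, 2 and 1 of them could be tested in the 3 lines. The early growth response gene Egr3 from that list rose by 2.07, 1.77 and 2.65.

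The targets listed for the orphan receptor encode mitochondrial proteins. Of 12 mitochondrial genes listed for Esrra, 3 of 10 tested rose and 1 fell in 1057, 0 of 11 changed in 1064 by edgeR and 2 of 10 rose in 1014-Grpr, with medians from 0.06 to 0.08. Blocked counts were 5 up and 0 down in 1064 and 5 up and 1 down in 1014-Grpr. The cytochrome c gene Cycs was the largest of them to pass, at 0.46 in 1057 and 0.32 in 1014-Grpr. Among steroid enzymes, 12 of 13 of which have a row in the table, 2 of 8 tested rose and 2 fell in 1057 and in 1014-Grpr alike, and 0 of 8 passed in 1064. Blocked counts were 2 up and 3 down in 1064 and 2 up and 4 down in 1014-Grpr. Hsd17b7, which acts in oestradiol and cholesterol synthesis, rose in 1057 (0.87) and 1014-Grpr (0.52), and Hsd17b11 decreased by 0.40 and 0.35. No gene of any of these lists passed in 1181-Grpr, 1014-Ctrl or 1181-Ctrl, where no gene at all passed the main test.

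The genes whose level followed each member most closely were ranked by Pearson's r of log2 CPM over the 24 group means, among 16596 genes. These points share lines and libraries, and r is given as a description. Nearest to Esr1 were Casp1, Gm16010 and S100a6 (r = 0.99 each). Nearest to Pgr, mostly near the floor, were Rplp1, Ppp2r5b (0.99 each) and Rps13 (0.98), and nearest to Nr3c1 were Ensa, Sdf4 and Eny2 (0.97 each). Pcdhga6, Fam84b and Aunip (0.99 each) came closest to Nr3c2, and Hacd4, Rexo1 (0.99 each) and Zkscan17 (0.98) to Esrra. Sulf2 (0.99), Fam171a2 and Ccng1 (0.98 each) came closest to Greb1, and Gm14636, Slc23a2 and Arih2 (0.99 each) to Nrip1. For the change of Nrip1 from mock, over 18 differences, the nearest was Zfp106 (0.99), followed by Wdr1 and Homer1 (0.98 each), and without the 2 libraries at odds Wdr1 came first (0.99).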

How the data were processed

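RNA-seq of 72 libraries was analysed from the files the authors deposited. Per the labels and the methods of the study, polyadenylated RNA was prepared with a stranded kit, reads were checked with FastQC 0.11.5 and mapped to mm10 with STAR, and the deposited tables hold raw counts per gene and TPM (transcript abundances scaled to gene length and library size by the authors), each library on its own and with no pooling. The submitters' processing notes name GRCm38.p5. The TPM of 1057 were deposited with decimal commas, which were read as points.

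Counts were tested with edgeR 4.0.16 (R 4.3.3, limma 3.58.1): filterByExpr, TMM, estimateDisp, glmQLFit and glmQLFTest, with Benjamini-Hochberg adjustment over all genes kept. GRP, RC and GRP+RC were compared within each line (12 libraries), differences of GRP effects within each pair of lines (24 libraries), and resting levels among 18 mock libraries. A gene rose or fell at adjusted p under 0.05, and calls also needed a change beyond 1 on the log2 scale in either direction, the limit of the study. SE is the log2 fold change over the square root of F. DESeq2 1.42.0 was an alternative, with RLE scaling, no filter, a replicate block, each replicate left out, 1 fit of 72 libraries and, since 2 libraries went against their labels, their omission. No pair of replicates agreed within sampling noise (72 pairs, chi-square per degree of freedom at least 2.56). The scripts were tested on simulated counts.

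Same-numbered GRP and mock libraries deviated together (every correlation over 0.1) in all lines but 1057, where the lowest was 0.0075. The replicate number was therefore taken to pair the samples in the other 5 lines from the data. For members the blocked value is given where it changes whether the adjusted p passed, and for lists blocked counts are given where they differ. The 7 genes and the lists were chosen with earlier results of these data known, and all 7 genes are reported with their values. A further gene of the lists is not reported here. Of the lists, genes past both limits after GRP were named, and Ncoa1, Fkbp5, Cycs, Hsd17b7 and Hsd17b11 were chosen after their values were seen. For likeness the 3 genes of highest r were taken. Gene positions are those of GENCODE and promoter sequences those of RefSeq, both on GRCm38.p6. Figures were drawn with matplotlib 3.10.9.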

Additional observations from a re-analysis of the deposited data

Results flagged for a closer look

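The effect of GRP on Greb1 differed between 1014-Grpr and 1014-Ctrl by 4.02 on the log2 scale in the test of the difference itself (adjusted p = 0.0245), and by 1.47 (adjusted p = 0.162) without the libraries at odds with their labels. Esr1 after GRP was above mock in every replicate of 1057 (0.11) and below mock in every replicate of 1064 (-0.41), and this difference between lines was not tested. In 1014-Grpr Esr1 was lower with GRP in 3 of 3 pairs of replicates (-0.35, adjusted p = 0.314), with overlap of the groups. Esrra after GRP was below mock in every replicate of 1057 (-0.10) and above mock in every replicate of 1064 (0.29) and of 1014-Grpr (0.18), and these differences were not tested either.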

How the results depend on the processing

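Counts of members past both limits changed with few settings. After GRP in 1057 the count went from 0 to 3 with the adjusted p alone (52.6% of all genes) and ran from 0 to 1 over the replicates left out. In 1064 it was 1 (2.32% of all genes) and ran from 0 to 1 over the replicates left out. In 1014-Grpr it went from 0 to 1 with the replicate block, where 638 of 13730 genes passed both limits. With the adjusted p alone it went to 2 (29.0% of all genes). Over 6 lines, RC against mock went from 0 to 2, GRP+RC against mock from 0 to 4 and GRP+RC against GRP from 0 to 3 with the adjusted p alone. Of all genes, 24.3%, 44.3% and 24.7% passed the adjusted p in these comparisons in 1057, and 11.8% in the last of them in 1014-Grpr. A single fit of 72 libraries gave 1 for GRP+RC against mock. For the 1014 pair the count of 1 became 0 with each replicate left out, without the 2 libraries, without them with the block, and in the single fit of 72 libraries. Of 61 resting differences under 10 settings each, 558 of 610 values passed as before and 52 no longer did, with no change of direction.

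Changes of sign touched only values that had not passed. In 1057 the Nr3c1 value after GRP became -0.01 in the single fit. In 1014-Ctrl, without the 2 libraries and then also with the block, Nr3c1 became -0.06 and -0.04, Nr3c2 -0.25 and -0.16, and Esrra 0.03 and 0. Nrip1 in 1014-Ctrl became 0 without a filter and 0.07 without the libraries and with the block. Greb1 in 1064 became 0.01 with RLE scaling and with DESeq2, and in the 1181 pair 0.01 with the block and 0 without the libraries and with the block. With each replicate left out, Esr1 ran from -0.28 to 0.08 in 1181-Grpr and from -1.81 to 0.15 in the 1181 pair, Pgr in 1064 from -0.04 to 0.64, and Esrra in 1181-Ctrl from -0.06 to 0.01. Nr3c1 in 1181-Grpr lay between -0.06 and 0, in 1014-Ctrl between -0.05 and 0.19, in 1181-Ctrl between -0.03 and 0.01, in the 1014 pair between -0.06 and 0.17 and in the 1181 pair between -0.08 and 0.04. Nr3c2 in 1014-Ctrl lay between -0.13 and 0.36. Greb1 in 1064 lay between -0.33 and 0.11 and in the 1181 pair between -0.07 and 0.10. Nrip1 in 1014-Ctrl lay between -0.10 and 0.09 and in 1181-Ctrl between -0.06 and 0.01. The cause of these changes was not tested.

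The block also changed how many of all genes passed in 1064 after GRP, from 880 to 6006, and 0 passed without replicate 1 or replicate 2. Depth limits Pgr outside 1057, Nr3c2 in 1064 and Esr1 in 1181-Ctrl, whose libraries hold a few counts each.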
